A study of Homo sapiens with 5 samples.

Results

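The 9 genes described here code for the fibroblast growth factor (FGF) receptors FGFR1, FGFR2, FGFR3 and FGFR4, the secreted ligands FGF2 and FGF4, and the Sprouty proteins SPRY1, SPRY2 and SPRY4. They were chosen by gene name, as 9 of the 27992 gene names in the deposited count table. RNA sequencing was done on 5 libraries from U2OS cells, an osteosarcoma line of human origin. In 4 of them the cells carried pTRIPZ-YFP-ER-E2F1, a doxycycline-inducible construct that joins yellow fluorescent protein (YFP), an oestrogen receptor (ER) part and the transcription factor E2F1, and flow cytometry had separated these cells by brightness into fractions labelled YFP-negative, YFP-low, YFP-medium or YFP-high. The other library was labelled parental U2OS, with no construct named in its label. All 5 libraries carry the same treatment in their labels, 500 ng/ml doxycycline for 48 h and then 90 nM 4-hydroxytamoxifen (OHT), a ligand of the ER part, for 20 h more, in medium with 8% fetal bovine serum. Per the labels, both drugs are thus shared by all groups, the parental and YFP-negative cells included. The labels do not say whether the line is 1 clone, nor whether the parental cells passed through the sorter.

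Each group is 1 library, so no spread between replicates can be measured, no p-value is given, and each difference is a difference between these libraries. Levels are given in CPM, gene reads per 1000000 after scaling by the trimmed mean of M values (TMM), and, for comparing different genes, in the deposited TPM, which is corrected for transcript length. Brackets after a fold change hold the exact 95% interval, which covers the counting of reads only and not the variation between cultures or sorts. A call of higher or lower required a log2 ratio of (CPM + 0.5) of at least 1 in size and an interval that excluded a ratio of 1. Ratios were analysed for the 15099 genes that reached 1 CPM in any library, among them 8 of the 9 genes. SPRY1 had under 1 CPM in every library, FGF4 passed only through YFP-medium and YFP-high, and SPRY4 passed only through the parental library.

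Depth was similar across the libraries, with 70.7 M to 76.5 M reads in gene rows. E2F1 was at 85.6 CPM in the parental library, 106 in the YFP-negative gate, 163 in YFP-low cells, 362 in YFP-medium cells and 998 in YFP-high cells, the order of the YFP gates. Reads of the construct and of endogenous E2F1 are counted together under this name. ESR1, the gene of oestrogen receptor alpha, had 3 to 25 reads. Of 9 mesenchymal and osteosarcoma markers, 5 (VIM, COL1A1, RUNX2, SPARC and ALPL) reached 1 CPM, while the osteoblast genes SP7, BGLAP and IBSP were at or near 0. The collagen gene COL1A2 was also low, with 16 to 31 reads, or 0.251 to 0.400 CPM. The summed level of the 9 was 6153 CPM in the parental library and 3099 to 3613 CPM in the 4 fractions. Leukocyte markers summed to at most 0.693 CPM, and endothelial markers to 2.21 to 4.82 CPM. Of 5 epithelial markers, 4 reached 1 CPM and KRT19 was at 0 reads, with sums of 455 CPM in YFP-high and 539 CPM in YFP-negative. Single markers differed in opposite directions within the sums. EPCAM was at 11.6 CPM in YFP-high and 3.28 in YFP-negative, and CDH1 at 2.53 and 5.14. Of the endothelial markers, KDR was at 1.88 CPM in YFP-high and 0.036 in YFP-negative, and TEK at 0.612 and 1.41. Whether these shifts in markers and their sums have a part in the differences below was not tested.

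FGF receptors are tyrosine kinases in the cell membrane. A secreted FGF and a heparan sulfate chain bring receptor molecules together on the cell surface, and the active kinase domains then signal through adaptor proteins to the RAS-ERK cascade and to phosphoinositide and phospholipase C pathways. Sprouty proteins act inside the cell as feedback inhibitors of this cascade, and ERK signalling is known to raise their transcription in many cell types. In bone, FGFR1 and FGFR2 act in osteoblasts and their precursors, and FGFR3 restrains the growth of cartilage in the growth plate.

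Promoter windows of 5 of these genes are shown because they include the receptor with the largest difference between fractions, a receptor with a smaller one, the receptor whose level hardly differed, and both Sprouty genes with analysed reads. Each runs from 250 bases before to 50 bases after an annotated start in RefSeq (GRCh38.p14), written 5′ to 3′ on the gene's strand. Capitals mark the GC box GGGCGG on either strand, a word bound by SP-family factors. The windows are chr4:1793043-1793342 (plus strand) for FGFR3, chr10:121598395-121598694 (minus strand) for FGFR2, chr5:177086665-177086964 (plus strand) for FGFR4, chr13:80341077-80341376 (minus strand) for SPRY2 and chr5:142324198-142324497 (minus strand) for SPRY4.
FGFR3: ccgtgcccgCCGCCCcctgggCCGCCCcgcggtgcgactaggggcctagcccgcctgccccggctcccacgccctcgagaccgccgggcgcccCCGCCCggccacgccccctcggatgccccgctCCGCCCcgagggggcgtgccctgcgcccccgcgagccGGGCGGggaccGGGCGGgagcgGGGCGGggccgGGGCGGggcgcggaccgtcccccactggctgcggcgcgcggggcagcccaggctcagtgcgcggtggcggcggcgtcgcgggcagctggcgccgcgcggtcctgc
FGFR2: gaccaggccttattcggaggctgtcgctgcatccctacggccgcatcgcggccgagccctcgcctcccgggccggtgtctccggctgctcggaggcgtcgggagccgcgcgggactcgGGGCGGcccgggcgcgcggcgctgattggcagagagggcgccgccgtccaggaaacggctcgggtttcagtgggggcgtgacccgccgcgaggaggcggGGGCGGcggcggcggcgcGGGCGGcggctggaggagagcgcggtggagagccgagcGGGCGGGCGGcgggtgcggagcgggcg
FGFR4: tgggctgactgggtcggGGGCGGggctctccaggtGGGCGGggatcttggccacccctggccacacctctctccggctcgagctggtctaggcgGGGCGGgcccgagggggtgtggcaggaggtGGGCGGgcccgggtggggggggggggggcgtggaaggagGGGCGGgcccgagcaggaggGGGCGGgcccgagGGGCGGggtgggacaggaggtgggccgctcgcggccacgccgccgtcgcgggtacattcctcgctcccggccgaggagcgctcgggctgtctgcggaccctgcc
SPRY2: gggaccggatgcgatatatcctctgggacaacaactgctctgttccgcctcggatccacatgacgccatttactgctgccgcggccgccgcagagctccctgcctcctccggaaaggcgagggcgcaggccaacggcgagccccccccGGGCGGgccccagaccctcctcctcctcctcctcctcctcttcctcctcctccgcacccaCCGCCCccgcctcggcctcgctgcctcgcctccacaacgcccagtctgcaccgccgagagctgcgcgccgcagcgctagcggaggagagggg
SPRY4: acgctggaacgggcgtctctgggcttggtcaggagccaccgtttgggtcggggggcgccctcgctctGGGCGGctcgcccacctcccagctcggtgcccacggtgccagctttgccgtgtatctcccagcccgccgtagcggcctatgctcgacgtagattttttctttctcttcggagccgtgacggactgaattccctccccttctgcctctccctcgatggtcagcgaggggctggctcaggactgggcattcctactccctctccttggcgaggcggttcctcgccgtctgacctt

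FGFR3 and SPRY4 have 1 annotated window each. For FGFR2, FGFR4 and SPRY2 the window shown is the one of several with the most G and C. The FGFR3 window was 86.3% G or C, above 99.9% of the 35116 RefSeq windows of the same length, whose median was 58.7%. It held 8 GC boxes. The shown windows of FGFR2, FGFR4, SPRY2 and SPRY4 held 5, 7, 2 and 1 boxes. The other 4 windows of FGFR2 held 0 or 1 box and were 47.3% to 50.7% G or C, and the other window of FGFR4 held 0 boxes at 57.3%. The other windows of SPRY2 held 0 and 1. At least 1 box was found in 45.0% of all windows, at least 3 in 15.8% and at least 5 in 5.14%. Many GC boxes were thus present in the window of FGFR3, which was much higher in YFP-high, and also in the shown window of FGFR4, which was not called. The E2F words TTTCCCGC, TTTCGCGC, TTTGCCGC and TTTGGCGC, searched on both strands with overlapping matches counted, were in none of the 15 windows annotated for 7 of the 9 genes, against 3.31% of all windows with at least 1. These letters being absent from these windows says nothing about binding elsewhere, and the start sites used in these cells were not measured. FGFR1 and FGF4 are not among the 7.

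FGFR3, compared per length in TPM, stood lowest of the receptors in the parental cells and highest in the YFP-high cells. FGFR3 was at 2.95 CPM in the parental library, 4.87 in the YFP-negative gate, 15.5 in YFP-low cells, 59.7 in YFP-medium cells and 179 in YFP-high cells. Each gate was above the gate before it, and no counting intervals of the 5 libraries overlapped. FGFR3 was 36.7-fold higher in YFP-high than in YFP-negative (33.2 to 40.6), the 21st highest log2 ratio among the analysed genes. It had 11384 reads in YFP-high and 405 in YFP-negative. These are means over all cells of a fraction, so more cells with the transcript and more transcript per cell cannot be told apart, here and for the other genes.

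FGFR2, which binds different sets of FGFs through its splice forms, was also highest in the brightest gate. FGFR2 was at 29.6 CPM in the parental library, 24.6 in the YFP-negative gate, 59.4 in YFP-low cells, 137 in YFP-medium cells and 206 in YFP-high cells. It was 8.39-fold higher in YFP-high than in YFP-negative (8.01 to 8.80). Its lowest level was in YFP-negative, not in the parental library. The counts are per gene name and do not separate the splice forms of FGFR2 or of the other receptors.

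FGFR1, the main receptor for FGF2 in many mesenchymal cells, started from a higher level and differed less. FGFR1 was at 74.3 CPM in the parental library, 81.1 in the YFP-negative gate, 94.2 in YFP-low cells, 132 in YFP-medium cells and 210 in YFP-high cells. It was 2.59-fold higher in YFP-high than in YFP-negative (2.52 to 2.67). The ratio of YFP-medium to YFP-negative was 1.63 (1.58 to 1.68), which was not called. LETM2 lies on the opposite strand over part of FGFR1 in GENCODE v29, and no source used here gives the strand setting of the counting. LETM2 had 914 reads in YFP-high and 1697 in YFP-negative, against 13403 and 6746 for FGFR1.

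FGFR4, whose best known ligand is the bile acid regulator FGF19, kept within a narrow range. FGFR4 was at 50.0 CPM in the parental library, 52.1 in the YFP-negative gate, 49.1 in YFP-low cells, 49.6 in YFP-medium cells and 45.7 in YFP-high cells. The level in YFP-high was 0.876 times that in YFP-negative (0.836 to 0.919), which was not called. With the libraries scaled by total gene reads the log2 ratio was -0.46, against -0.19 with TMM.

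**Figure D1:**
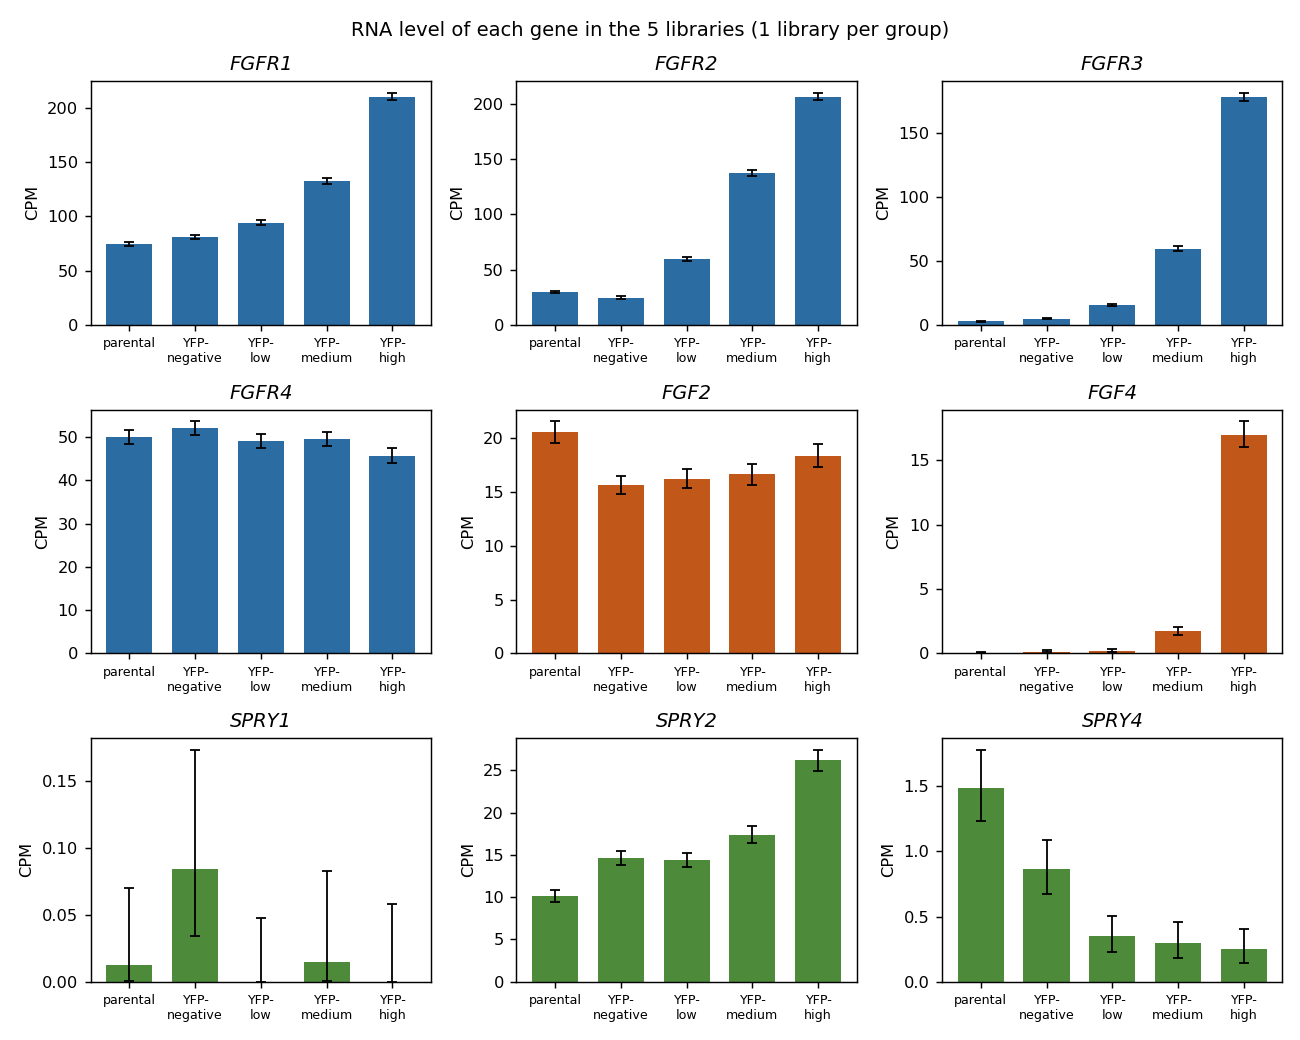
Level of each of the 9 genes in TMM-scaled CPM, as bars from 0 with a scale of its own per gene, by library from parental through the YFP gates (1 library per group); whiskers are exact 95% counting intervals. FGFR3 and FGF4 climb most steeply, with 179 CPM in YFP-high against 4.87 CPM in YFP-negative for FGFR3, while FGFR4 and FGF2 show no climb of this kind and SPRY4 has its lowest level in YFP-high.

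Both the total and the mix of receptor transcripts differed between these libraries. The deposited TPM of the 4 receptors summed to 75.2 in the parental library, 77.9 in the YFP-negative gate, 99.8 in YFP-low cells, 162 in YFP-medium cells and 274 in YFP-high cells. The sum in YFP-high was 3.51 times that in YFP-negative. In YFP-high, FGFR3 made up 35.6% of the receptor TPM, FGFR2 30.6%, FGFR1 22.6% and FGFR4 11.2%. In YFP-negative, FGFR4 made up 48.9%, FGFR1 33.4%, FGFR2 14.0% and FGFR3 3.73%. By TPM, FGFR4 thus had the largest share in the YFP-negative cells and the smallest in the YFP-high cells, although its own level hardly differed.

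In YFP-medium the shares of FGFR1, FGFR3 and FGFR4 lay between those in YFP-negative and YFP-high. The share of FGFR2 was above both. FGFR2 led there with 34.8%, followed by FGFR1 with 24.2%, and the counting intervals of FGFR4 (33.6 TPM) and FGFR3 (33.0 TPM) overlapped. The order depends on the correction for length. By read counts alone, FGFR1 had 32.8%, FGFR2 32.2%, FGFR3 27.9% and FGFR4 7.13% in YFP-high, where the intervals of FGFR1 and FGFR2 overlapped. In YFP-negative FGFR1 led by reads with 49.8%, and FGFR4 had 32.1%.

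**Figure D2:**
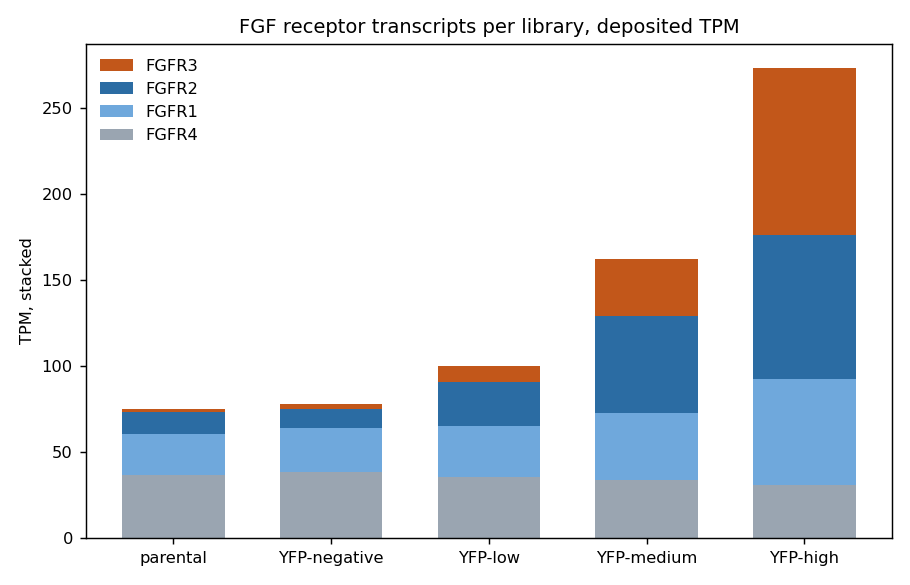
Summed TPM of FGFR1, FGFR2, FGFR3 and FGFR4 in each library, from 0, with each receptor as a part of the bar; there is 1 library per group and no error bar. The sum reaches 274 TPM in YFP-high, against 77.9 TPM in YFP-negative, and FGFR3 grows to 35.6% of it, against 3.73%.

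FGF4, a secreted ligand known from the early embryo and the limb bud, was almost unread outside the brighter gates. FGF4 had 1 read in the parental library, 11 in the YFP-negative gate, 16 in YFP-low cells, 116 in YFP-medium cells and 1084 in YFP-high cells. The parental, YFP-negative and YFP-low libraries were all below 0.21 CPM, and the counting intervals of YFP-negative and YFP-low overlapped. FGF4 was at 17.0 CPM in YFP-high and 0.132 CPM in YFP-negative, a 129-fold difference (71.6 to 259) with the 34th highest log2 ratio. The pseudocount draws that log2 ratio down to 4.79.

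FGF2, a ligand that leaves cells without a signal peptide and is widely made by mesenchymal cells, differed only slightly between the gates. FGF2 was at 20.6 CPM in the parental library, 15.7 in the YFP-negative gate, 16.3 in YFP-low cells, 16.6 in YFP-medium cells and 18.4 in YFP-high cells. The ratio of YFP-high to YFP-negative was 1.17 (1.08 to 1.27), not called, and its log2 value of 0.22 turned to -0.04 when libraries were scaled by total gene reads. NUDT6 overlaps FGF2 on the opposite strand in GENCODE v29 and had 46 reads in YFP-high and 140 in YFP-negative, against 1170 and 1303 for FGF2.

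Set beside each other per length, the order of the 2 ligands was not the same in all fractions. FGF4 was at 43.8 TPM and FGF2 at 6.39 TPM in YFP-high, so that FGF4 was 6.86 times FGF2 there. In YFP-negative FGF2 was 15.9 times FGF4, with 5.95 TPM for FGF2 and 0.374 TPM for FGF4. Over the 17 secreted FGF genes with a TPM value, FGF4 made up 43.0% of the summed level in YFP-high, against 0.556% in YFP-negative. FGF2 made up 6.27% in YFP-high and 8.85% in YFP-negative. The sum itself was 102 TPM in YFP-high and 67.2 TPM in YFP-negative. The most abundant of the 17 was FGF1 in the parental, YFP-negative and YFP-low libraries, FGF21 in YFP-medium and FGF4 in YFP-high. The counting intervals of the top 2 overlapped in YFP-low (FGF1 and FGF5) and in YFP-medium (FGF21 and FGF1).

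SPRY2 carried nearly all Sprouty transcript among the 3 genes. SPRY2 was at 10.1 CPM in the parental library, 14.6 in the YFP-negative gate, 14.4 in YFP-low cells, 17.4 in YFP-medium cells and 26.2 in YFP-high cells. YFP-negative and YFP-low could not be told apart by their counting intervals, and YFP-high lay above all others. The ratio of YFP-high to YFP-negative was 1.79 (1.66 to 1.93), below the fold needed for a call, with a log2 value of 0.82.

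SPRY4, the other Sprouty gene with analysed reads, was at a very low level and had its most reads in the parental library. SPRY4 had 118 reads in the parental library, 72 in the YFP-negative gate, 27 in YFP-low cells, 20 in YFP-medium cells and 16 in YFP-high cells. The 3 libraries with YFP signal lay below both libraries without it, and their own intervals overlapped. Without a pseudocount the level in YFP-negative was 3.45 times that in YFP-high (1.98 to 6.35). With 0.5 CPM added the log2 ratio was -0.86 and was not called, and with 0.1 CPM added, a setting chosen after seeing the data, it was -1.46 and was called lower. An antisense gene, SPRY4-AS1, overlaps SPRY4 in GENCODE v29, and reads from the pair cannot be told apart without the strand setting.

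SPRY1 was barely read at all, with 1 read in the parental library, 7 in the YFP-negative gate, 0 in YFP-low cells, 1 in YFP-medium cells and 0 in YFP-high cells. The counting intervals of its levels in YFP-high and YFP-negative overlapped. The exact interval of the ratio of YFP-high to YFP-negative, 0 to 0.906, excluded 1. That ratio rests on 0 and 7 reads, and SPRY1 was below the minimum level and was not analysed. The 3 Sprouty genes summed to 21.9 TPM in YFP-high and 13.8 TPM in YFP-negative, of which SPRY2 made up 99.4% and 96.0%. The Sprouty sum in YFP-high was 1.58 times that in YFP-negative, beside 3.51 times for the receptor sum.

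Across all analysed genes, 20.3% were called higher and 11.3% lower in YFP-high against YFP-negative. Of the 8 analysed genes here, 4 were called higher (FGFR1, FGFR2, FGFR3 and FGF4) and 0 lower. Their median log2 ratio was 1.10, beside -0.05 for all analysed genes. In YFP-low against YFP-negative, 2 of 8 were called higher (FGFR2 and FGFR3), beside 2.07% of all genes, and 0 lower, beside 0.0596%. In YFP-medium against YFP-negative, 3 of 8 were called higher (FGFR2, FGFR3 and FGF4), beside 9.75%, and 0 lower, beside 2.25%. The call of FGF4 in YFP-medium was lost with 2 CPM added, at a log2 ratio of 0.80. FGF4 passed the minimum level through the bright gates where it is high, so these counts are descriptions and not support for the group. All 3 comparisons share the YFP-negative library.

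The genes differed in the gate at which most of the difference appeared. YFP-low was already 2.42-fold above YFP-negative for FGFR2 (2.29 to 2.55) and 3.19-fold above it for FGFR3 (2.85 to 3.58). Against the parental library, FGFR3 kept its call in YFP-low but FGFR2, at 59.4 CPM against 29.6, fell just short. For FGF4 that ratio was 1.56 with an interval that included 1 (0.681 to 3.72). FGFR2 had 80.8% of its YFP-high log2 ratio in YFP-medium, FGFR3 had 68.9%, FGFR1 51.2% and FGF4 37.7%. E2F1 itself had 54.6%. The value for FGF4 rests on the 0.5 CPM added to its low level. Without a pseudocount, a setting chosen after seeing the data, FGF4 had 52.8%, FGFR2 80.9%, FGFR3 69.6%, FGFR1 51.2% and E2F1 54.7%. By this share FGFR2 and FGFR3 lay above E2F1 in YFP-medium under both settings.

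Neighbouring gates can also be set against each other. In YFP-medium against YFP-low, FGFR2 was 2.31-fold higher (2.23 to 2.40), FGFR3 3.84-fold (3.60 to 4.10) and FGF4 8.30-fold (4.90 to 15.01), the last call being lost with 2 CPM added, at 0.75. These were the 3 of 8 called higher, beside 2.74% of all genes, with 0 lower beside 0.185%. In YFP-high against YFP-medium, FGFR3 was 2.99-fold higher (2.89 to 3.10) and FGF4 9.92-fold (8.19 to 12.1). They were the 2 of 8 called higher, beside 9.17%, with 0 lower beside 1.31%. FGFR2 had a log2 ratio of 0.59 in that last step and SPRY2 of 0.58, both uncalled. SPRY2 had its largest step between gates there.

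**Figure D3:**
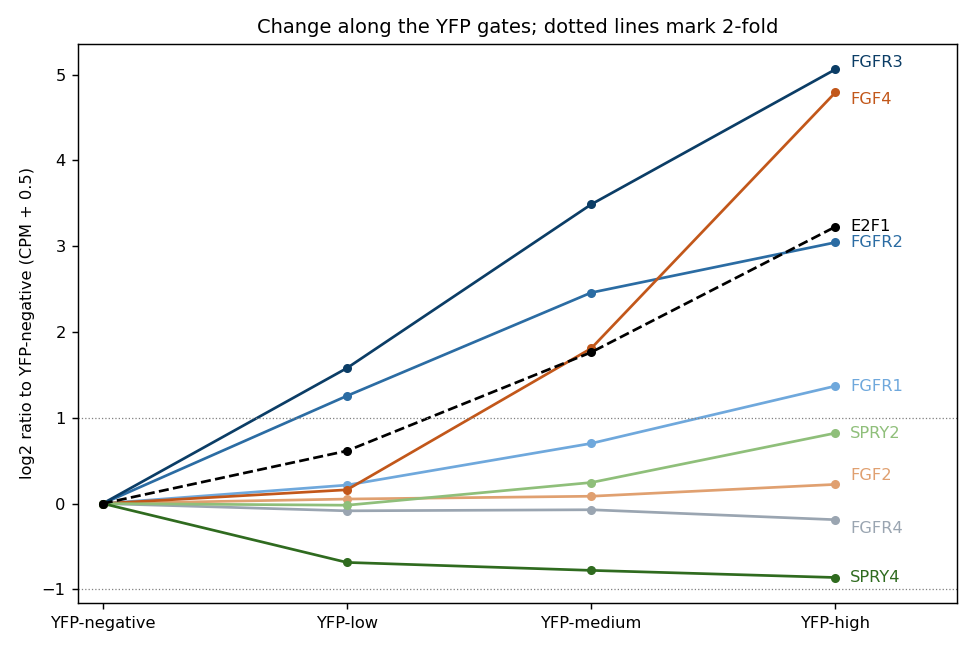
Log2 ratio of (CPM + 0.5) to YFP-negative in YFP-low, YFP-medium and YFP-high for the 8 analysed genes, with E2F1 for comparison; each point is 1 library, dotted lines mark 2-fold, and there are no error bars. FGFR2 reaches 80.8% of its final value by YFP-medium and FGF4 37.7%, a share that is 52.8% without the added 0.5 CPM, while SPRY4 has 79.6% of its final, negative value in YFP-low.

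The parental library gives a second baseline without the construct. In YFP-negative against parental, 0 of 8 genes were called higher and 0 lower by the size rule, beside 2.21% and 2.85% of all genes. The ratios nearest to a call were FGFR3, 1.65 times the parental level (1.40 to 1.95), SPRY2, 1.44 times (1.32 to 1.58), and SPRY4, 1.72-fold lower (1.27 to 2.34). FGF4 had 11 reads in YFP-negative and 1 in parental, a ratio of 10.5 with a counting interval of 1.52 to 451.

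In YFP-high against parental, 5 of 8 were called higher, beside 21.3% of all genes, and 1 lower, beside 14.6%. FGFR3 was 60.6-fold higher (53.2 to 69.2), FGFR2 6.97-fold (6.67 to 7.28), FGFR1 2.83-fold (2.75 to 2.92) and SPRY2 2.58-fold (2.37 to 2.81). FGF4 was the fifth, with 1084 reads in YFP-high and 1 in parental, a ratio of 1349 with a counting interval of 242 to 53343. SPRY4 was 5.92-fold lower (3.501 to 10.7), a call lost with 2 CPM added, at a log2 ratio of -0.63. Against this baseline both SPRY2 and SPRY4 passed the rule, in opposite directions.

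A list of 71 other FGF pathway genes, grouped by role, was examined beside the 9. Of these, 53 reached the minimum level, and in YFP-high against YFP-negative 11 were called higher, 8 lower and 34 neither. That is beside the 20.3% and 11.3% of all genes given above, shares that also stand beside the counts by role below for this comparison. The list's median log2 ratio was -0.01, beside -0.05 for all genes.

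Among 5 analysed secreted ligands, 2 were called higher and 2 lower. FGF9, a ligand that can bind FGFR3, was at 32.0 CPM in YFP-high and 1.65 CPM in YFP-negative, 19.4-fold higher (16.3 to 23.3). FGF5, known from hair growth control, was at 11.2 CPM in YFP-high and 40.3 CPM in YFP-negative. FGF1, which can bind all 4 receptors, was at 12.7 CPM in YFP-high and 38.6 CPM in YFP-negative. The ligand RNA of the YFP-high cells thus held more FGF4 and FGF9 and less FGF1 and FGF5. For FGF5 the baseline matters, since its parental level was 5.67 CPM, below that of YFP-high. FGF3 was the other ligand called higher, with 117 reads in YFP-high and 4 in YFP-negative, below the 5 CPM asked of genes named by rule and named after its values were seen. Its call was lost with 2 CPM added, at a log2 ratio of 0.91. Of 4 intracellular FGF homologues, known mainly as partners of sodium channels, FGF12 alone was called, at 18.2 CPM in YFP-high and 5.66 CPM in YFP-negative.

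Among 6 co-receptors, decoys and carriers, 2 were called higher and 1 lower. FLRT1, a membrane protein that can bind FGF receptors, was at 22.1 CPM in YFP-high and 0.769 CPM in YFP-negative, 28.7-fold higher (22.3 to 37.4). FGFRL1, a receptor relative without a kinase domain, was at 193 CPM in YFP-high and 46.6 CPM in YFP-negative. FLRT3 was the 1 called lower, with 23 reads in YFP-high and 117 in YFP-negative, and it too is named after its values were seen. Its log2 ratio of -1.15 became -0.53 with 2 CPM added, which ended the call. Of 7 heparan sulfate enzymes, HS6ST1 and HS2ST1, which add sulfate at the 6-O and 2-O positions, were 3.80-fold (3.68 to 3.92) and 3.35-fold higher (3.27 to 3.43). NDST1, which adds N-sulfate early in chain modification, was at 138 CPM in YFP-high and 324 CPM in YFP-negative and was called lower.

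Downstream of the receptor, most genes were not called, as were most of all analysed genes (20.3% called higher and 11.3% lower). Of 10 adaptors and proximal effectors, GAB1, a docking protein, was 5.10-fold higher (4.79 to 5.42) and 9 were called in neither direction. Of 9 genes of the RAS-ERK cascade, MAPK3, which codes for ERK1, was 2.06-fold higher (1.96 to 2.17) and 8 were not called. The log2 ratio of MAPK3, 1.03, was close to the threshold and was 0.76 with libraries scaled by total gene reads, which ended the call, as did TPM at 0.90.

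Of 4 analysed other feedback inhibitors, 2 were called lower and 0 higher, beside 11.3% and 20.3% of all genes. SPRED3, a Sprouty relative, was at 4.82 CPM in YFP-high and 13.6 CPM in YFP-negative. IL17RD, also called SEF, a membrane inhibitor of FGF signalling, was at 8.19 CPM in YFP-high and 21.5 CPM in YFP-negative. Against parental, IL17RD was again called lower, while SPRED3 had a ratio of 0.831 (0.717 to 0.962) and was not called. DUSP6, the ERK phosphatase often read as an ERK response, stayed below 1 CPM with 19 to 51 reads and was not analysed.

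Of the 8 transcriptional targets on the list, 2 were called higher and 2 lower in YFP-high against YFP-negative. EGR1, an immediate early gene, was at 380 CPM in YFP-high and 113 CPM in YFP-negative. SPHK1, sphingosine kinase, was at 285 CPM in YFP-high and 51.2 CPM in YFP-negative. ETV1, an ETS factor, was at 3.17 CPM in YFP-high and 8.66 CPM in YFP-negative. FOSL1, an AP-1 subunit, was at 38.3 CPM in YFP-high and 81.1 CPM in YFP-negative. The first pair was called higher and the second pair lower. ETV4 and ETV5, ETS factors used as FGF response genes in embryos, had log2 ratios of -0.01 and 0.77 and were not called. The sign for ETV4 turned with DESeq2 size factors, at 0.03.

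**Figure D4:**
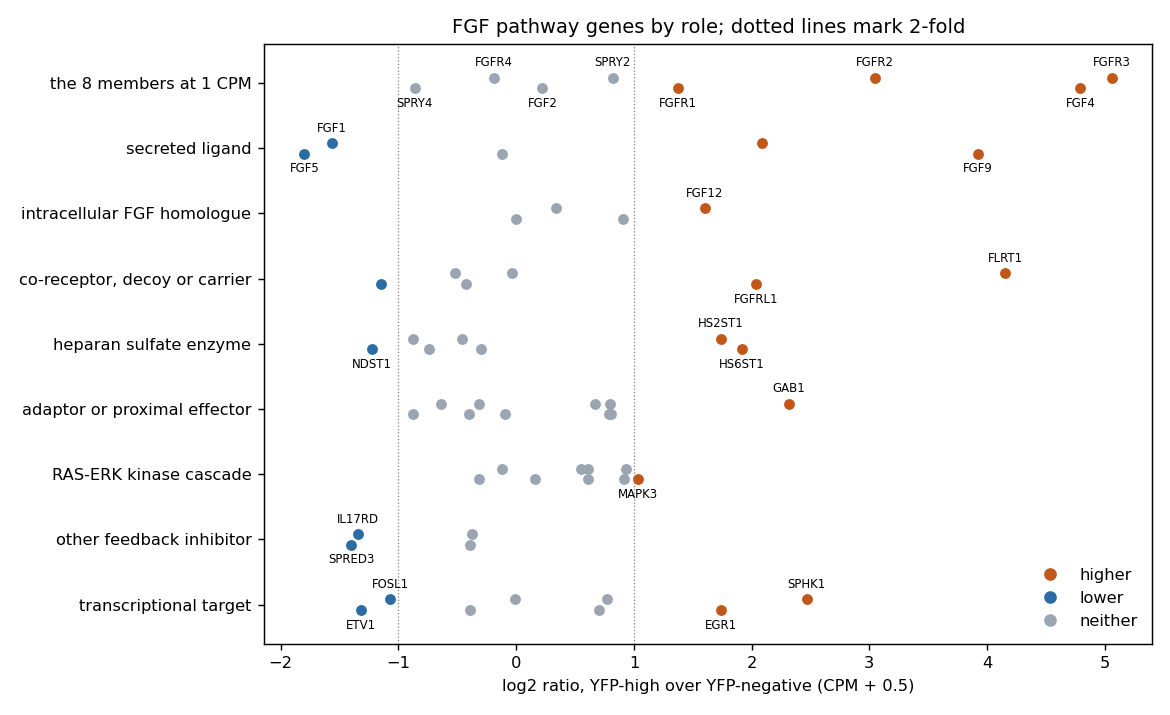
Log2 ratio of YFP-high to YFP-negative for the 53 analysed FGF pathway genes, by role, with the 8 analysed receptor, ligand and Sprouty genes beside them; each point is 1 gene in 1 library pair and dotted lines mark the 2-fold rule. Called genes lie on both sides of 0, 11 higher and 8 lower, and 34 lie between.

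The choice of baseline weighed on the targets. In YFP-negative against parental, 7 of the 53 were called higher and 2 lower, beside 2.21% and 2.85% of all genes, and 5 of the 7 were targets, ETV1, ETV4, ETV5, FOSL1 and SPHK1. The other 2 called higher were FGF5 and SPRED3, and those called lower were FLRT3 and PHLDA1. ETV4 was at 139 CPM in YFP-negative and 54.9 CPM in parental, and ETV5 at 120 and 47.5 CPM. ETV1 (0.85) and SPRED3 (just below 1 on the log2 scale) lost their calls with 2 CPM added. These genes are named after their values were seen. In YFP-high against parental, 13 of the 53 were called higher and 3 lower, beside 21.3% and 14.6% of all genes. Of the 8 targets, 4 were called higher there and 0 lower. SPHK1 was 14.4-fold higher (13.7 to 15.2), ETV5 4.31-fold (4.16 to 4.47), ETV4 2.53-fold (2.44 to 2.62) and EGR1 2.31-fold (2.26 to 2.35). ETV1, with a ratio of 0.808 (0.674 to 0.968), and FOSL1, with 0.987 (0.935 to 1.04), were not called against parental.

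The genes with the most similar profiles over the 5 libraries were found for each of the 8 by the Euclidean distance of centred log2(CPM + 0.5) values. FGF4 lay nearest to ZBTB16, at a distance of 0.144, followed by ADRA2B at 0.303 and TMEM155 at 0.378. In the parental, YFP-negative and YFP-low libraries, FGF4 and these genes were all below the added 0.5 CPM, which compresses their distances. ZBTB16, a zinc finger transcription factor, was at 18.1 CPM in YFP-high and 0.168 CPM in YFP-negative. FGFR3 lay nearest to SKOR1 (0.277), CBLN2 (0.309) and KCNK2 (0.441), and FGFR2 to C1orf187 (0.214), IKZF2 (0.221) and AL137535 (0.234). SKOR1, a transcriptional corepressor, was at 40.6 CPM in YFP-high and 0.925 CPM in YFP-negative.

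Neighbours were closer for FGFR1, SPRY2, FGFR4 and FGF2 than for FGF4, FGFR3 and FGFR2. FGFR1 lay nearest to LRIG1 (0.069), NXF1 and BRF1, and SPRY2 to GK (0.072), PDCD5 and CCPG1. FGFR4 lay nearest to NDUFA6 (0.042), C10orf137 and EIF2S1, and the profiles close to FGF2 included SEPN1 (0.053) and NR1D2 (0.064). SPRY4 lay nearest to AK126225 (0.129), TMC3 and THNSL2, a distance that the added 0.5 CPM compresses at its low level. A likeness over 5 libraries is a description of these libraries.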

How the data were processed

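The authors deposited raw read counts per gene name, and a TPM table in which each library adds up to 1000000. Per the submitters' processing notes, the build was hg19 and the tools, given in no order, were HTSeq 0.6.0, HISAT2 2.0.3, Trimmomatic 0.36, bcl2fastq and CASAVA 1.8.2. No source used here gives the annotation, the strand setting or the tool behind TPM. Reads in rows without a gene name did not count toward library size; gene rows held 75.7% to 77.7% of counted reads. Counts were scaled with TMM in edgeR 4.0.16 (R 4.3.3) over the genes that reached 1 CPM in any of 5 libraries. Ratios used a pseudocount of 0.5 CPM, with exact Clopper-Pearson 95% intervals from Python 3.11.15 and scipy 1.17.1. Each group is 1 library, so no test between groups was made. TPM intervals were scaled from the counting intervals of the reads. Promoters came from RefSeq (GRCh38.p14), overlaps from GENCODE v29, and no coordinates were converted.

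The 9 genes, the pathway list, the markers and the tests were chosen with earlier results of these data known. Named genes were the 9, up to 4 called genes per pathway role by size of log2 ratio that reached 5 CPM in either library, and the 3 nearest profiles of each analysed gene; exceptions are stated where they occur, and 1 of these profiles is not reported here. Of 71 list genes, ANOS1 was matched under the older name KAL1. The size rule was tested on simulated data. Alternatives were total counts, size factors from DESeq2 1.42.0, other filters, other pseudocounts, deposited TPM, a 1.5-fold rule and the parental library as baseline.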

Additional observations from a re-analysis of the deposited data

How the results depend on the processing

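No paired analysis was possible because each group is 1 library with no replicate number, and no library could be left out. The 8 genes over 7 comparisons gave 56 results of higher, lower or neither, most of them neither. Of these, 56 were kept with DESeq2 size factors, with total counts and with TPM, where no counting interval was asked for. With a pseudocount of 2 CPM 53 were kept, with 0.1 CPM (added after seeing the data) 52, and with a 1.5-fold rule 48. A filter changes only which genes are analysed. The 56 kept with no filter and the 49 of 49 with a 5 CPM filter were therefore fixed in advance. With a 1.5-fold rule, 1 gene was called lower in every one of the 3 fractions with YFP against YFP-negative (SPRY4 each time), 4 higher in YFP-high against YFP-medium, and 1 higher in YFP-negative against parental (FGFR3). Under that rule, against YFP-negative, SPRY2 was also called higher in YFP-high (log2 ratio 0.82) and FGFR1 in YFP-medium (0.70). With 0.1 CPM, 1 gene (SPRY4) was called lower in YFP-high against YFP-negative, and likewise in YFP-low and YFP-medium, and FGF4 was called higher in YFP-negative against parental (log2 ratio 1.04). With the parental baseline, 1 was called higher (FGFR3) and 1 lower (SPRY4) in YFP-low, where the FGFR2 call was lost, and 1 lower (SPRY4) in YFP-medium. In YFP-high against parental, 0 were called lower with a 5 CPM filter, which removes SPRY4, and 0 with a pseudocount of 2 CPM, which also ended the FGF4 call in YFP-medium (log2 ratio 0.80 against YFP-negative and 0.75 against YFP-low). For the pathway list the 1.5-fold rule called 22 higher in YFP-high against YFP-negative, and 22 higher and 9 lower against parental, where total counts called 5 lower. Total counts moved the median of all genes by -0.26 and TPM by -0.12 (log2) in YFP-high against YFP-negative. All 20 shares of a receptor in the receptor sum moved when reads replaced TPM. Signs turned only for uncalled FGF2 and FGFR4 ratios, in 5 of 56 ratios with total counts and 3 with TPM. Alternatives for the named pathway genes were added after seeing the data. Depth limits SPRY1, SPRY4 and FGF4 outside the brighter gates.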

Other observations

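Genes beside the 9 on the chromosome were read in the same libraries, by order in the RefSeq annotation. Calls here are for YFP-high against YFP-negative, where 20.3% of all analysed genes were called higher and 11.3% lower. None of the neighbours looked up for FGFR4, FGF2, SPRY1 and SPRY2 was called. Around FGF4, FGF3 had 117 reads in YFP-high and 4 in YFP-negative, a ratio of 38.2 (14.5 to 143), and FGF19 had 4 and 0 reads. ANO1, a chloride channel gene on the same side as FGF3, was at 106 CPM in YFP-high and 4.59 CPM in YFP-negative, 23.0-fold higher (20.7 to 25.6). ORAOV1, on the other side, was at 10.8 CPM in YFP-high and 15.3 CPM in YFP-negative and was not called.

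Around FGFR1, the 3 genes WHSC1L1, TACC1 and PLEKHA2 were called higher in YFP-high than in YFP-negative, by 3.23-fold, 3.54-fold and 2.76-fold, and LETM2 was not called. TACC1 was at 517 CPM in YFP-high and 146 CPM in YFP-negative. Around FGFR3, LETM1 was 2.25-fold higher and TACC3, TMEM129 and WHSC1 were not called. TACC3 was at 178 CPM in the YFP-negative gate, 256 in YFP-low cells, 307 in YFP-medium cells and 248 in YFP-high cells, a course unlike that of FGFR3. Around FGFR2, WDR11 was at 39.8 CPM in YFP-high and 59.5 CPM in YFP-negative, and PPAPDC1A was 2.13-fold higher. On the other side of FGFR2, ATE1 was 1.99-fold (1.89 to 2.11) and NSMCE4A 1.75-fold higher (1.67 to 1.83), neither as a call.

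SPRY4 lies next to FGF1, and both were lower in YFP-high than in YFP-negative, FGF1 as a call. NDFIP1, on the other side of SPRY4, was at 54.4 CPM in YFP-high and 51.2 CPM in YFP-negative. GNPDA1, the next gene beyond NDFIP1, was at 22.6 CPM in YFP-high and 40.7 CPM in YFP-negative. That ratio was 0.556 (0.522 to 0.591) and was not called. ARHGAP26, the next gene beyond FGF1, was called higher, 2.53-fold (2.39 to 2.69). These neighbours were looked up after the values of the 9 genes were seen.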
